A study of Mus musculus with 8 samples.

Results

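Pigr encodes the polymeric immunoglobulin receptor, the epithelial protein that carries dimeric IgA and pentameric IgM into the lumen of the gut. It is described here in Paneth cells, the secretory cells at the base of small intestinal crypts, from C57BL/6J mice. The gene was taken from the deposited count table by its Ensembl identifier, ENSMUSG00000026417, which makes it 1 of 55414 gene IDs. It was put forward with its values in these libraries already known, so its levels and its difference between the groups are given as a description without a test.

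The study compared mice that drank Milli-Q water with mice that drank water holding 25 mM ZnSO4, both for 7 days. There were 4 mice in each group, with no mutant allele, transgene or infection in either. Cells were released from the small intestine, Paneth cells were collected by FACS, and stranded mRNA libraries were made from their total RNA. No source used here gives the age or sex of the animals, and the labels do not say from which stretch of the small intestine the cells came.

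Polymeric IgA is made by plasma cells in the lamina propria, where the J chain links its monomers. The receptor binds it at the basolateral face of an epithelial cell, is taken into endosomes, crosses the cell in vesicles and is cleaved at the apical face, which releases the antibody together with the outer part of the receptor, the secretory component. Each receptor molecule makes the trip only once, so an epithelial cell that exports antibody has to keep producing it. In intestinal epithelium the gene is known to respond to interferon gamma, tumour necrosis factor, interleukin-4, interleukin-17 and microbial ligands. Its promoter is known for an E-box bound by the upstream stimulatory factors.

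Pigr lies on mouse chromosome 1 (GRCm39, 130754397 to 130779986, plus strand) and has 13 merged exons with a summed length of 4049 bases. The 250 bases before its RefSeq start (chr1:130754171-130754420, plus strand) are shown because they hold the E-box, given in capitals. The RefSeq start, at 130754421, lies 24 bases downstream of the GENCODE start.
Pigr promoter: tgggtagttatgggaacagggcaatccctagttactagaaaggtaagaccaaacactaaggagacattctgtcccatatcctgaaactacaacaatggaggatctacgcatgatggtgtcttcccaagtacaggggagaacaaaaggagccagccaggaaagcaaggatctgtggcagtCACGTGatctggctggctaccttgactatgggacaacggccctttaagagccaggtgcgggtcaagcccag
The E-box CACGTG begins at position -71, counted back from the RefSeq start, and is its own reverse complement. It was found in 7.15% of 32851 promoter windows of the same kind, each running from 250 bases before to 50 bases after a start. The interferon-response core AANNGAAA was found 1 time in the Pigr window, on the minus strand at position 8 after the start, and in 23.9% of all windows. The metal response element, searched as TGCGCNC or TGCACNC, had no match in the Pigr window and a match in 25.7% of all windows. No match was found for the palindromic STAT site (6.95% of windows), the AP-1 letters TGANTCA (7.81%) or an NF-kappaB site (8.46%). Both strands were searched, and a match or its absence describes only the letters of this window.

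The libraries held 20760764 to 24117111 counts, and 11637 to 12411 genes per library had at least 10 counts. Levels are given in CPM, the count of a gene once every library is brought to the same total, with the totals scaled by TMM, a method that lines up the bulk of the genes between libraries. Of all gene IDs, 11988 passed the filter on low counts and were tested. The 28 α-defensin (Defa) genes took 27.9% to 39.8% of the counts, and water 1 and zinc 1 stood apart with the largest Defa shares (39.8% and 38.5%) and the smallest TMM factors (0.764 and 0.775, against 0.998 to 1.23). Results that bear on Pigr are therefore also given without this pair. The metallothionein genes Mt1 and Mt2, which cells switch on when zinc rises, served as a check of the treatment: Mt1 ran from 13.7 to 29.1 CPM with water and from 189 to 425 CPM with zinc, and Mt2 from 2.15 to 7.32 and from 205 to 455 CPM. For both genes every zinc library lay above every water library.

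Pigr was an abundant transcript in every library. Its raw counts were 19356, 34640, 45269 and 39181 in water 1 to 4, and 16366, 21002, 24310 and 27403 in zinc 1 to 4. Counting error was small at this depth: the exact Poisson 95% interval was 16116 to 16619 for the lowest library and 44853 to 45688 for the highest. The libraries carry no molecular identifiers, so such intervals cover counting error only.

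On the TMM scale the level of Pigr was 1211, 1488, 1915 and 1496 CPM in water 1 to 4. In zinc 1 to 4 it was 972, 1014, 960 and 1063 CPM. All 4 zinc libraries lay below all 4 water libraries, with water 1 the lowest of its group and water 3 the highest. The water libraries had a mean of 1528 ± 290 CPM and the zinc libraries one of 1002 ± 46.5 CPM (SD, n = 4 per group), a ratio of 0.656. The coefficient of variation was 19.0% with water and 4.64% with zinc, so the zinc libraries sat close together while the water libraries spread over a range of 1211 to 1915 CPM. In sorted bulk RNA of this kind, fewer cells of a type and less RNA per cell cannot be told apart.

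The log2 fold change of Pigr, zinc over water, was -0.61 with a standard error (SE) of 0.16. Since the gene was chosen on this contrast, neither a p nor a call is given for it. Over all genes, the edgeR quasi-likelihood test put 10 past an adjusted p of 0.05, which is 0.0834% of the genes tested (3 higher with zinc, 0.025%, and 7 lower, 0.0584%). Over 15973 genes, DESeq2 put 8 higher and 28 lower past the same threshold. By size of the log2 fold change Pigr ranked 581st of 11988, and 3.20% of the tested genes had a lower value. Groups that did not overlap on the TMM scale, with zinc the lower, were found for 1.59% of all tested genes. The median log2 fold change over all genes was 0.01.

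The separation of the groups depended on the scaling. With library totals alone, Pigr stood at 924, 1513, 2040 and 1814 CPM in water 1 to 4 and at 752, 1012, 1008 and 1301 CPM in zinc 1 to 4. Water 1 then lay below zinc 2, 3 and 4, and the groups overlapped. The means were 1573 ± 483 and 1018 ± 224 CPM (SD, n = 4 each), with a ratio of 0.648 that was close to the one on the TMM scale. As a share of all counts this was 0.157% ± 0.0483 with water and 0.102% ± 0.0224 with zinc.

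Leaving the Defa genes out of the totals gave 1536, 2289, 3052 and 2562 CPM in water 1 to 4, and 1224, 1533, 1507 and 1804 CPM in zinc 1 to 4. Water 1 again lay inside the range of the zinc libraries. The means were 2360 ± 633 and 1517 ± 237 CPM (SD, n = 4 each). Water 1 and zinc 1, the pair with the largest Defa shares, had the lowest Pigr of their groups on both of these scales. Without this pair, the log2 fold change on the TMM scale was -0.70 (SE 0.16).

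**Figure D1:**
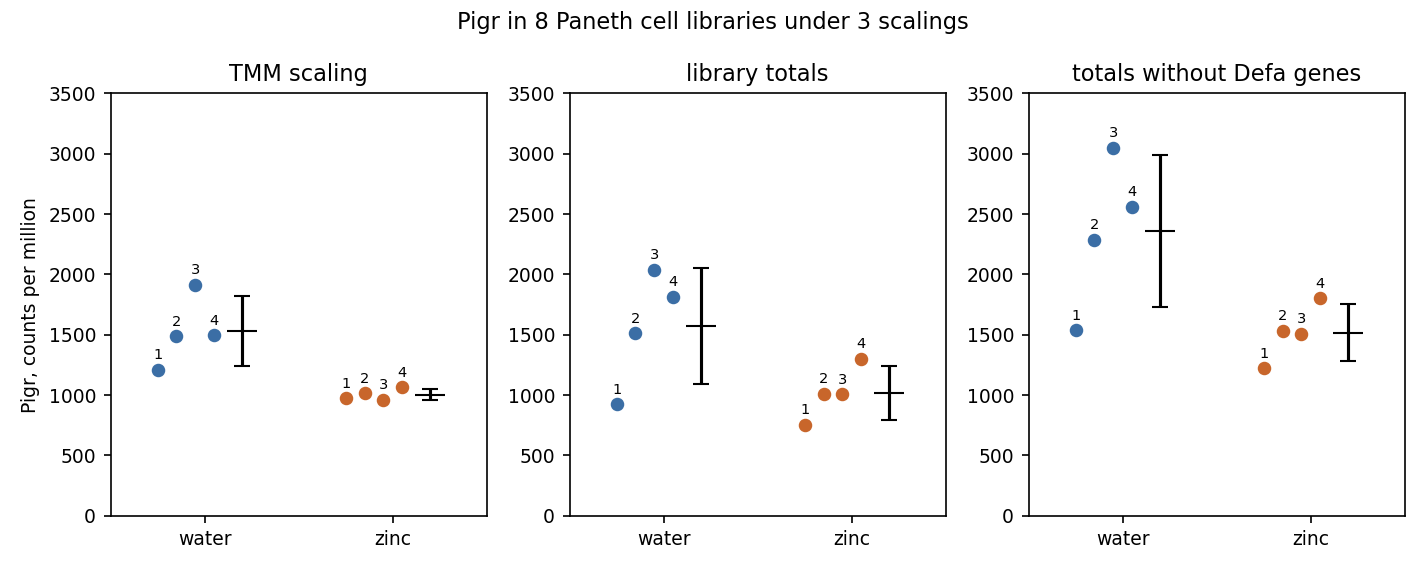
Pigr in CPM (vertical axis) in the 4 water and 4 zinc libraries, numbered by replicate, with TMM scaling (left), library totals (middle) and totals without Defa genes (right), and with the mean and SD of each group drawn beside the points. The groups separate on the TMM scale (1211 to 1915 against 960 to 1063 CPM), while on the other scales water 1 falls within the zinc range.

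Against other transcripts, Pigr ranked high. Divided by exon length, its level was 299, 368, 473 and 370 CPM per kilobase in water 1 to 4 and 240, 250, 237 and 262 in zinc 1 to 4. The mean over the 8 libraries was 312 CPM per kilobase, 52nd among the tested genes and above 99.6% of them. Within single libraries its rank ran from 42 in water 3 to 61 in zinc 1. By CPM without division by length its mean ranked 31st. The length used joins the exons of every annotated transcript, so a gene with long rarely used exons is placed too low.

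The 3 genes just above Pigr by mean level per length were Gm1123 (368 ± 87.8 CPM per kilobase), Lypd8 (344 ± 39.2) and Pglyrp1 (313 ± 84.1), given with the SD over 8 libraries. Lypd8 encodes a protein released into the lumen that binds flagellated bacteria, and Pglyrp1 a peptidoglycan recognition protein. The 3 just below were Tmed6 (309 ± 83.5), the elongation factor gene Eef1a1 (293 ± 28.0) and the ribosomal protein gene Rpl4 (267 ± 23.8). The SD of Pigr was 84.1, and the means of all 6 neighbours in this order lay within 1 SD of its mean. That SD spans both groups, whose Pigr means were 377 with water and 248 with zinc. It therefore cannot settle the order of these genes relative to Pigr, which was not tested.

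**Figure D2:**
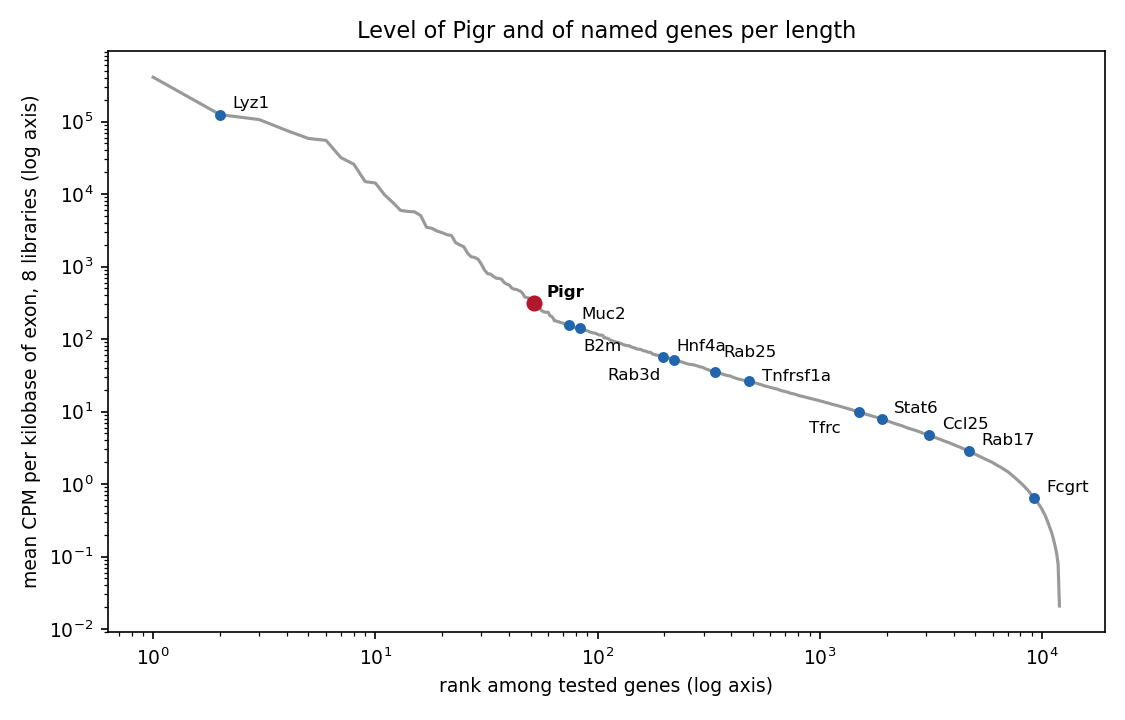
Mean CPM per kilobase of exon over 8 libraries (vertical, log axis) against rank among the tested genes (horizontal, log axis), with Pigr in red and other named genes in blue. Pigr, at rank 52 and 312 CPM per kilobase, lies below the lysozyme gene Lyz1 and above B2m, at 141, and Fcgrt, at 0.640.

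The ligand chains of the receptor were at or near the limit of detection. Igha, the constant region of the IgA heavy chain, had 2, 0, 0 and 0 counts in water 1 to 4 and 2, 0, 0 and 4 in zinc 1 to 4. Ighm, its IgM counterpart, had 2 counts in zinc 3 and 0 elsewhere. Jchain, which joins the monomers and is needed for binding to the receptor, had 1 count each in zinc 3 and zinc 4 and 0 in the other libraries. The kappa light chain gene Igkc had 3, 9, 0 and 0 counts with water and 4, 3, 1 and 6 with zinc. Over all 264 immunoglobulin gene segment IDs, of which 5 had any count, the sum was 0 to 9 counts per water library and 3 to 10 per zinc library. A count of 0 was taken to allow up to 3 counts, or 0.115 to 0.188 CPM depending on the library.

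The wider list of antibody-producing cell genes held 22 members, of which 13 were at 0 counts in every library. Among these were Mzb1 and Tnfrsf17, a plasma cell chaperone and survival receptor, and Irf4, a transcription factor of plasma cells. Another 6 had counts but stayed under 10 in every library, and Cd79b, a chain of the B cell receptor, reached 14 in zinc 4. Pou2af1 and Derl3 alone were tested. Pou2af1, a coactivator of B cells, had a log2 fold change of 0.45 (SE 0.28), and Derl3, part of the degradation machinery of the endoplasmic reticulum in secretory cells, one of 0.14 (SE 0.27). Both had an adjusted p of 0.998 in edgeR, neither passed an unadjusted p of 0.05 (4.65% of all genes), and DESeq2 called neither. In both groups the libraries held almost no RNA of antibody-producing cells.

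Other receptors that bind immunoglobulin stood below Pigr per length, or were at 0. B2m, the light chain of MHC class I and of the neonatal Fc receptor, had a mean of 141 CPM per kilobase. Fcgbp, a mucus protein first described for binding the Fc part of IgG, had 86.5. Trim21, a cytosolic antibody receptor, had 1.47, and Fcgrt, the heavy chain of the neonatal Fc receptor that moves IgG across epithelium, had 0.640.

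Fcgrt stood at 2.94, 3.18, 3.85 and 4.43 CPM in water 1 to 4 and at 3.68, 3.23, 2.57 and 1.28 CPM in zinc 1 to 4. Its groups overlapped, with a log2 fold change of -0.44 (SE 0.31) and an adjusted p of 0.998 in edgeR. For B2m the log2 fold change was -0.24 (SE 0.15) and for Fcgbp 0.08 (SE 0.44), with the same adjusted p. Fcgbp varied widely among mice, from 624 to 1305 CPM with water and from 401 to 1636 CPM with zinc. Of the 19 listed members, 4 were tested. None was called in edgeR (0.0834% of all genes) or in DESeq2, and none had an unadjusted edgeR p under 0.05 (4.65% of all genes). At 0 counts everywhere were 10 members. Those at 0 included Fcmr, the receptor for IgM, and the activating Fc receptors Fcgr1, Fcgr3 and Fcgr4 of myeloid cells.

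Fcamr, the receptor for IgA and IgM that lies 11330 bases upstream of Pigr, had 2, 4, 3 and 4 counts with water and 0, 1, 0 and 1 with zinc. These counts lie around the floor of 3, and no fold is given. Fcmr lies 13420 bases downstream and was at 0. Pigr was thus the only member of this cluster of related receptor genes with more than 4 counts in any library.

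The region of 200 kb on either side held few active genes. C4bp, which encodes a complement inhibitor, had a mean of 122 CPM and a log2 fold change of 0.03 (SE 0.29). AA986860 had 8.64 CPM and -0.25 (SE 0.21), and Yod1, a deubiquitinase gene, had 3.56 CPM and -0.11 (SE 0.24). The cytokine genes Il10, Il19, Il20 and Il24, which lie downstream, were at 0 counts in every library. None of the tested neighbours was called in edgeR, beside 0.0834% of all genes.

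Gm15848, an antisense noncoding gene (130737684 to 130760293, minus strand), overlaps the start of Pigr over 5897 bases. It had 6 to 27 counts per library and a log2 fold change of -0.66 (SE 0.57). The kit keeps strand, but no source used here gives the strand setting of the counting. Reads in the overlap may therefore have been given to either gene or left out, and their part in the Pigr counts was not tested.

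After binding, the receptor depends on machinery for basolateral sorting, endosomes and apical transport. In this list 29 of 30 members were tested, and 0 were called in edgeR or in DESeq2, beside 0.0834% of all genes in edgeR. At an unadjusted p under 0.05 there were 3 members, all lower with zinc, beside 4.65% of all genes (2.81% lower and 1.84% higher). The median log2 fold change was -0.03, with 13 members above 0 and 16 below, and the range was -0.44 to 0.24. Pigr, at -0.61, lay outside that range.

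The most abundant members per length were Rab3d, Rab25 and Ap1m2. Rab3d, a GTPase of secretory granules and a partner of transcytotic vesicles, had 52.2 CPM per kilobase and a log2 fold change of -0.01 (SE 0.14). Rab25, a GTPase of the apical recycling endosome, had 35.1 and -0.03 (SE 0.12). Ap1m2, the adaptor subunit of epithelial cells that sorts cargo to the basolateral membrane, had 20.8 and 0.05 (SE 0.11). Rab11a, which works beside Rab25, had a log2 fold change of 0.06 (SE 0.11), and the vesicle motor Myo5b one of -0.19 (SE 0.12). These 5 genes differed between the groups by less than 2 standard errors.

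Rab17, a GTPase of polarised epithelium known for its part in transcytosis of the receptor, stood at 5.38, 6.57, 7.15 and 6.99 CPM in water 1 to 4. In zinc 1 to 4 it stood at 3.92, 5.26, 5.18 and 4.93 CPM. Its groups did not overlap, and the difference was -0.44 on the log2 scale (SE 0.19, edgeR adjusted p = 0.998). Src, a kinase of the same family as Yes1, had 45.9, 46.7, 54.4 and 48.3 CPM with water and 40.0, 38.8, 39.3 and 34.6 CPM with zinc. Its log2 fold change was -0.36 (SE 0.11) with an adjusted p of 0.660, the smallest of the list, and its groups did not overlap either. Groups without overlap, in either direction, were found for 2.84% of all tested genes.

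Tfrc, the transferrin receptor and a standard cargo of recycling endosomes, stood at 76.7, 92.1, 71.2 and 78.3 CPM in water 1 to 4 and at 74.3, 55.2, 48.6 and 64.2 CPM in zinc 1 to 4. Zinc 1 lay within the water range. The fitted log2 fold change came to -0.39 (SE 0.13), with an adjusted p of 0.866 in edgeR. Of the kinases that act when the receptor meets its ligand, Yes1 had a log2 fold change of 0.08 (SE 0.11) and Egfr one of -0.07 (SE 0.14).

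The next list held the receptors, adaptors and transcription factors through which the gene is known to be raised. Of 39 members 38 were tested, with 0 called in edgeR or in DESeq2, beside 0.0834% of all genes in edgeR. At an unadjusted p under 0.05 there were 5, namely Nfkbia, Ifngr1, Tlr2, Ifngr2 and Nfkb2, and all stood lower with zinc, beside 2.81% of all genes in that direction. The median log2 fold change was -0.09, with 12 members above 0 and 26 below, and the range was -0.84 to 0.12. Among all tested genes 48.1% lay below 0.

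Nfkbia, the inhibitor of NF-kappaB that NF-kappaB itself switches on, stood at 25.9, 30.2, 32.9 and 27.8 CPM in water 1 to 4. In zinc 1 to 4 it stood at 24.1, 18.4, 21.1 and 14.9 CPM. It was the only tested member of the list whose groups did not overlap, and it differed by -0.58 on the log2 scale (SE 0.15, edgeR adjusted p = 0.385), close in size to Pigr. Without the filter on low counts its adjusted p was 0.0160. For Relb, a subunit of the alternative NF-kappaB pathway, the log2 fold change was -0.22 (SE 0.16), and for Nfkb2, its partner, -0.31 (SE 0.14).

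Ifngr1, the ligand-binding chain of the interferon gamma receptor, stood at 28.8, 34.97, 38.2 and 51.9 CPM in water 1 to 4 and at 28.3, 32.0, 28.0 and 24.4 CPM in zinc 1 to 4. The lowest water library lay inside the zinc range. In edgeR its log2 fold change came to -0.45 (SE 0.16, adjusted p = 0.881), and that of Ifngr2, the second chain, was -0.37 (SE 0.14). Downstream of this receptor, the transcription factor Irf1 had -0.19 (SE 0.12). Tlr2, a receptor for bacterial lipoproteins, had -0.84 (SE 0.32).

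The remaining named members lay within 2 standard errors of 0. Il4ra, Stat6 and Il17ra, which carry the interleukin-4 and interleukin-17 signals, had log2 fold changes of -0.23 (SE 0.14), 0.04 (SE 0.11) and 0.08 (SE 0.15). Tnfrsf1a, the main receptor for tumour necrosis factor, had 26.1 CPM per kilobase and -0.08 (SE 0.12), and Ltbr, a receptor of the same family, 24.7 and -0.10 (SE 0.11). Myd88, the adaptor of most Toll-like receptors, had -0.05 (SE 0.16).

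Tlr4, the receptor for lipopolysaccharide, did not pass the filter, with 1, 0, 6 and 31 counts with water and 0, 3, 0 and 0 with zinc. The transcription factors named next lay within 1 standard error of 0. For Usf1 and Usf2, which bind E-boxes of the kind shown above, the log2 fold change was -0.04 (SE 0.15) and -0.05 (SE 0.13). Hnf4a, the most abundant member at 56.8 CPM per kilobase, had 0.08 (SE 0.12).

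Epithelial cells also send signals that draw or instruct antibody-producing cells, and 9 of the 18 listed were tested. None was called in edgeR (0.0834% of all genes) or in DESeq2. At an unadjusted edgeR p under 0.05, 4 stood lower with zinc (2.81% of all genes). Another 3 of the list were at 0 everywhere (Il6, Aldh1a2 and Slpi). The median log2 fold change was -0.37, with 2 members above 0 and 7 below, where 48.1% of all tested genes lay below 0. Of the list, Ccl20 and Cxcl16 had groups that did not overlap, beside 2.84% of all tested genes.

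Ccl28, the chemokine that draws IgA plasma cells to mucosal surfaces, stood at 22.3, 25.7, 34.0 and 32.2 CPM in water 1 to 4 and at 24.1, 12.0, 14.7 and 18.5 CPM in zinc 1 to 4. Zinc 1 was the only zinc library within the water range. Its fitted difference was -0.73 on the log2 scale (SE 0.20, edgeR adjusted p = 0.523), and without water 1 and zinc 1 it was -1.03 (adjusted p = 0.0308). Without the filter on low counts the adjusted p was 0.000349. Ccl25, which draws cells to the small intestine, had 0.06 (SE 0.11), with water 4 above all other libraries of its group.

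Ccl20, which attracts cells to lymphoid follicles, was sparse, with 16, 15, 44 and 37 counts in water 1 to 4 and 8, 8, 0 and 3 counts in zinc 1 to 4. In edgeR this came to a log2 fold change of -2.41 (SE 0.70, adjusted p = 0.547). Cxcl16 had -1.33 (SE 0.45, adjusted p = 0.866). For the cytokines that support class switching to IgA, Tnfsf13 (APRIL) had -0.58 (SE 0.26) and Tnfsf13b (BAFF) -0.36 (SE 0.37).

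**Figure D3:**
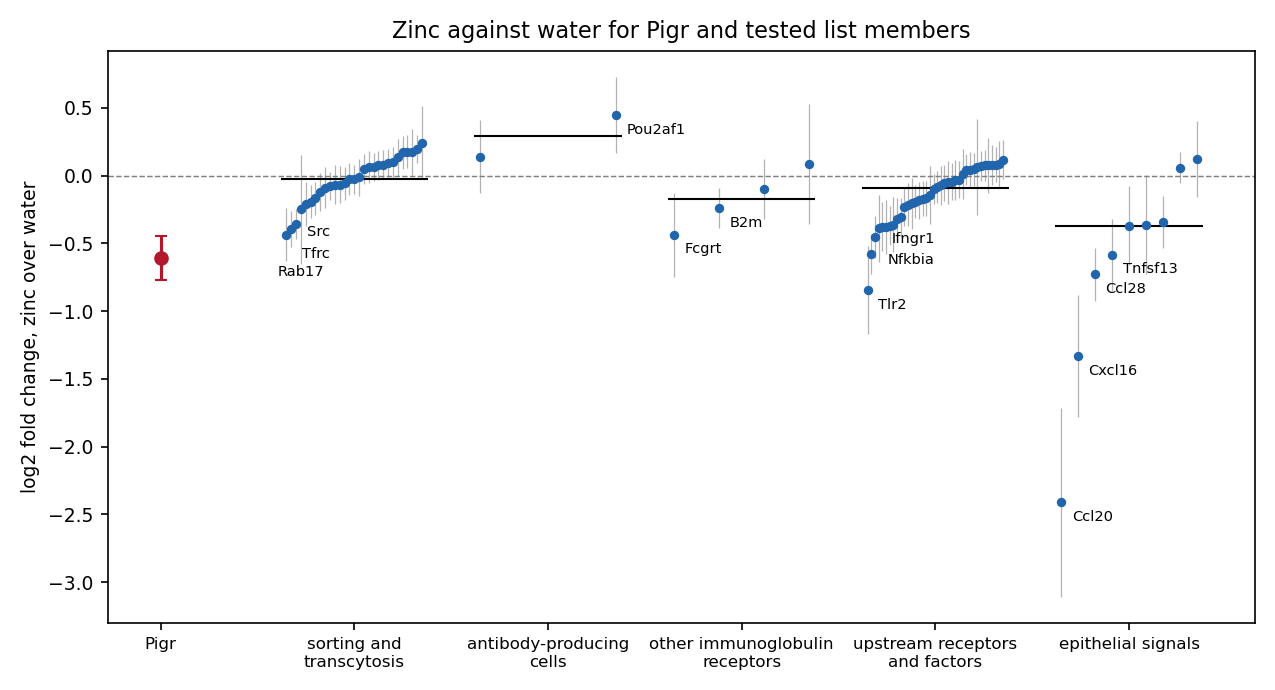
Log2 fold change, zinc over water, with SE (vertical axis) for Pigr and for the tested members of 5 lists (horizontal axis), each point 1 gene, with a black bar at the median of each list. Pigr lies at -0.61, sorting genes range from -0.44 to 0.24 around a median of -0.03, and epithelial signals range down to -2.41 for Ccl20.

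Over the 8 libraries, the pattern of Pigr on the log2 CPM scale was compared with that of 6785 genes with a mean of at least 10 CPM. The median Pearson r was -0.09, and 71 genes (1.05%) had an r above 0.8. These correlations are descriptions over 8 points that share libraries, depth and the 2 treatment groups, and no p is given for them. Where group means were removed, only the variation among mice of the same group was left.

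The 5 genes most like Pigr were Otud4, Stau2, Bcl2l14, Cblc and Clca3b. Otud4, a deubiquitinase gene, had r = 0.95 (Spearman rho 0.86), and 0.92 with the group means removed. Stau2, which encodes an RNA-binding protein, had r = 0.95 (rho 0.95) and 0.77, and Bcl2l14, of the Bcl-2 family, had r = 0.94 (rho 0.90) and 0.73. Cblc, a ubiquitin ligase gene, had r = 0.93 (rho 0.79) and 0.87. Without water 3 and water 4, the libraries farthest from the median of Pigr, r was 0.87, 0.87, 0.86 and 0.81 for these 4 genes.

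Clca3b, a secreted protein gene of the Clca family, was the only one of the 5 at a level near that of Pigr, with 211 CPM per kilobase. It stood at 718, 903, 970 and 1126 CPM in water 1 to 4 and at 527, 572, 541 and 574 CPM in zinc 1 to 4. Like Pigr it had no overlap between the groups, its lowest water value in water 1 and a narrow zinc range, but its highest value was in water 4 rather than water 3. Its r was 0.92 (rho 0.95), 0.64 with the group means removed and 0.99 without water 3 and water 4. Its difference was -0.75 on the log2 scale (SE 0.15, edgeR adjusted p = 0.0819), with a range of -0.86 to -0.65 when each library was left out in turn. The call turned with the setting. It passed the threshold in 1 of the 8 fits that left out a library (without water 1), and also in DESeq2 (adjusted p = 1.54e-05), with the replicate block in edgeR (adjusted p = 0.000827) and without water 1 and zinc 1 (edgeR adjusted p = 0.0330). As Clca3b was picked for its likeness to Pigr in these libraries, its difference between the groups is not independent of that choice.

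The genes that ran most against Pigr were Phf6 (r = -0.95), Hikeshi (-0.95), Mon1b (-0.94), Pigq (-0.94) and Hnrnpf (-0.94). Their log2 fold changes lay between 0.19 and 0.36, and none of the 5 was called, beside 0.0834% of all genes in edgeR. All 5 had their lowest water value in water 3, the library with the most Pigr. As these genes were picked for running against Pigr in these libraries, neither that low value nor their differences between the groups are independent of that choice.

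**Figure D4:**
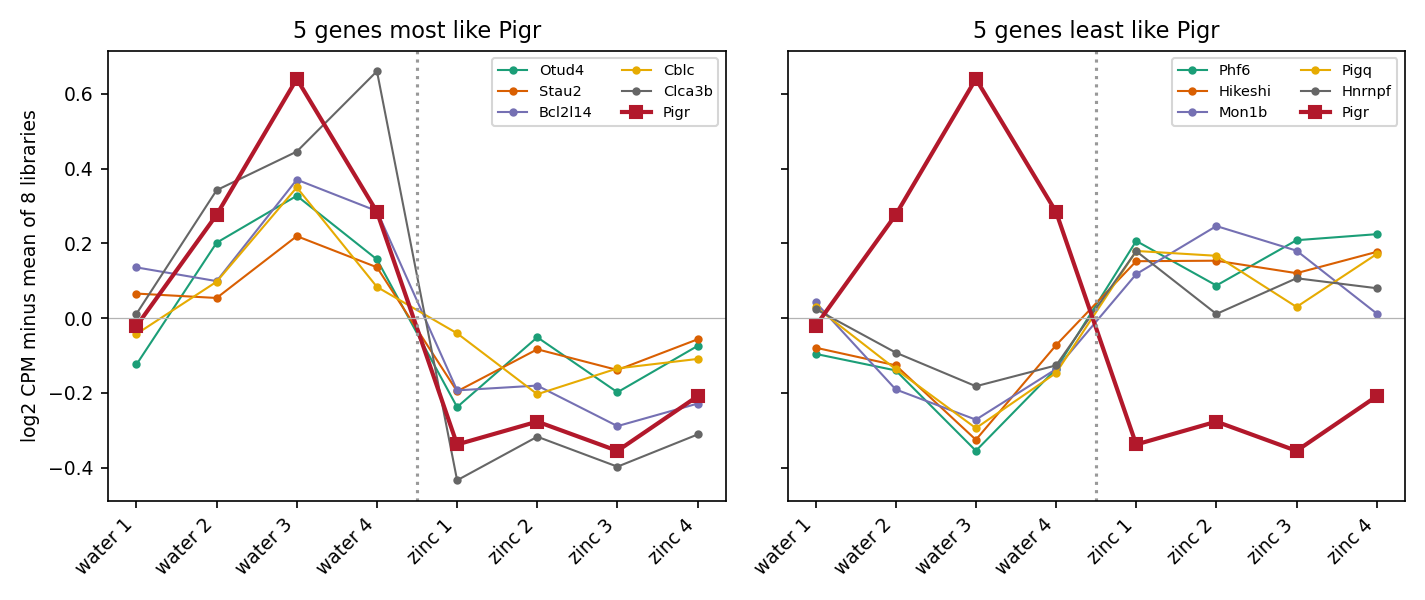
Log2 CPM minus the mean over 8 libraries (vertical axis) for Pigr (red squares) and the 5 genes most like it (left) or least like it (right) in each water and zinc library (horizontal axis). Lines only join the points of a gene. Pigr peaks in water 3 and lies below its mean in all 4 zinc libraries.

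The labelled cell type was checked against marker lists. The 10 Paneth cell markers took 45.1% to 58.7% of the counts in each library. Enterocytes, which make large amounts of Pigr in the intact mucosa, left little trace of their defining genes: Alpi had at most 15 counts, Fabp1 at most 18 and Lct at most 3 in any library. The summed level of the 16 enterocyte markers, 511 to 613 CPM with water and 514 to 638 CPM with zinc, had Anpep as its most abundant member. Its r with Pigr was -0.19 (rho -0.52, n = 8), -0.10 with the group means removed and -0.25 without water 4 and zinc 4. That of the Paneth cell markers was -0.26 (rho -0.24), -0.52 with the group means removed and 0.05 without zinc 1 and water 1.

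Goblet cell markers summed to 3856 to 5426 CPM with water and 4424 to 7727 CPM with zinc (r = -0.26 with Pigr, -0.27 with the group means removed and 0.87 without zinc 4 and water 3, n = 8). Muc2, the gel-forming mucin of that list, had a mean of 156 CPM per kilobase, about the level of B2m. Enteroendocrine and tuft cell markers summed to 56.3 to 184 CPM with water and 62.5 to 150 CPM with zinc (r = 0.28, 0.63 with the group means removed and 0.11 without water 1 and zinc 1). Leukocyte markers summed to 149 to 293 CPM with water and 32.0 to 189 CPM with zinc (r = 0.46, -0.31 with the group means removed and -0.06 without zinc 2 and zinc 1). Of these markers Cd3e, Cd8a, Cd4 and Itgax were at 0 counts in all libraries, and Cd74 was the most abundant on average.

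Stem and dividing cell markers had the highest r with Pigr of the 6 lists over the 8 libraries, though not with the group means removed or without the 2 farthest libraries. They summed to 4737, 5456, 5365 and 6177 CPM in water 1 to 4 and to 4883, 4298, 3936 and 3528 CPM in zinc 1 to 4, with zinc 1 inside the water range. Their r with Pigr was 0.72 (rho 0.69, n = 8), 0.14 with the group means removed and 0.79 without zinc 4 and water 4. Most of the sum was Olfm4, a gene of crypt base stem cells, with 4082, 4703, 4667 and 5484 CPM with water and 4150, 3490, 3177 and 2799 CPM with zinc (log2 fold change -0.48, SE 0.19, edgeR adjusted p = 0.998). All 10 stem and dividing cell markers passed the filter on low counts, with 5 log2 fold changes above 0 and 5 below. The lower sum with zinc therefore does not describe the list as a whole. At an unadjusted edgeR p under 0.05, Top2a and Mki67 stood higher with zinc and Olfm4 lower. Top2a, a gene of dividing cells, had the smallest p of the list (adjusted 0.660). Its mean was 104 CPM with water and 140 CPM with zinc, a difference of 0.43 on the log2 scale (SE 0.13). The part of these cells, and of the RNA of the goblet and leukocyte lists, in the Pigr values was not tested.

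**Figure D5:**
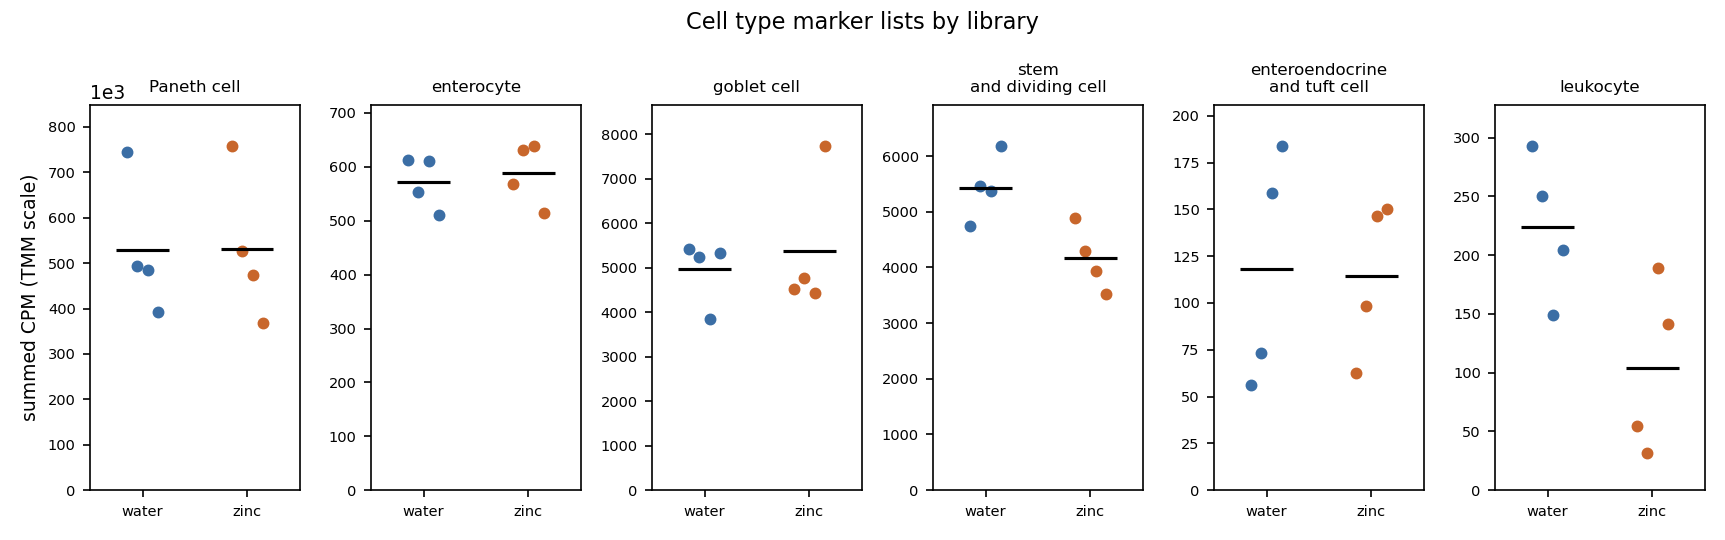
Summed CPM on the TMM scale (vertical axes, each from 0) of 6 cell type marker lists in the 4 water and 4 zinc libraries, each point 1 library with a bar at the group mean. Enterocyte sums overlap between the groups, while stem and dividing cell sums run from 4737 to 6177 CPM with water and from 3528 to 4883 CPM with zinc.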

How the data were processed

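The authors deposited 1 table of raw read counts per Ensembl gene ID for 8 libraries. The submitters' processing notes name FastQC 0.12.0, STAR 2.7.0a, DESeq2 and the build mm39, while no source used here names the counting program or its strand setting. IDs were matched to GENCODE M39 on GRCm39 (54749 of 55414). Promoter sequence came from RefSeq (table build GRCm38.p6) and was located once in GRCm39.

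Counts were tested with edgeR 4.0.16 in R 4.3.3 (filterByExpr with a minimum count of 10, TMM, robust quasi-likelihood F test, treatment only), with Benjamini-Hochberg adjustment over 11988 genes and a threshold of 0.05. SE was the size of the log2 fold change divided by the square root of the F statistic. Correlations used log2 CPM with a prior count of 2. Figures were drawn with Python 3.11.15. The procedure was tested on simulated counts.

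Totals of 20760764 to 24117111 counts set a floor (3 counts) of 0.115 to 0.188 CPM. No pair of libraries in a group agreed within sampling noise (chi-square over degrees of freedom at least 31.4). That check covers counting noise only and cannot show that the libraries came from separate mice. Each library was counted as 1 replicate. The sources imply 1 mouse per library. If that were not so, p-values would measure only the spread between these samples.

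The gene, the lists and the rule for named genes were chosen with earlier results of these data known. The rule took Pigr and a written set of genes of its pathway, and in each list and among the neighbours every gene past the threshold, the one with the smallest p and the 3 highest per length. It added the 5 genes with the highest and the 5 with the lowest r with Pigr, and the 3 genes on either side of it by level. Other genes named were picked after their values were seen. Some genes that the rule took are not reported here. Alternatives were DESeq2 1.42.0 (the tool of the study's methods), RLE size factors, library totals, Defa genes left out, no filter on low counts, the replicate number as a block, and each library left out in turn. Leaving out water 1 and zinc 1 together was chosen after seeing the data.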

Additional observations from a re-analysis of the deposited data

Results flagged for a closer look

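Pigr had no library far from the others of its group. For genes named above or kept in the lists, 178 groups of 4 libraries were checked for a stray sample. Stray meant that the gap to its nearest neighbour took up most of the group's range. Independent values with a normal spread would give this in about 1 group in 20. That rate is no measure of chance here, as the groups share libraries. A gene at 0 in all other libraries of a group is also flagged by any count. In all, 14 groups had such a sample. Among immunoglobulin and receptor genes with very few counts these were Igha in water 1 (0.125 CPM, 2 counts), Ighm in zinc 3 (0.0790 CPM, 2 counts) and Tlr4 in zinc 2 (0.145 CPM, 3 counts), each against 0 in the other 3 libraries of the group. Ccl25 was high in water 4 (69.3 CPM, others 53.3 to 54.2) and Derl3 in water 1 (7.57 CPM, others 3.39 to 3.90). Hnf4a was low in zinc 1 (268 CPM, others 301 to 303). Among markers of other cell types, Muc2 was high in zinc 4 (3085 CPM, others 2013 to 2186), Retnlb in water 1 (93.2 CPM, others 5.23 to 17.5), Sct in water 1 (36.5 CPM, others 20.5 to 21.9) and Apoa1 in water 4 (2.18 CPM, others at most 0.338). Of the metallothioneins, Mt1 (425 CPM, others 189 to 223) and Mt2 (455 CPM, others 205 to 239.8) were both highest in zinc 2. Of the genes that ran against Pigr, Phf6 was low in zinc 2 (15.7 CPM, others 17.0 to 17.3) and Pigq in zinc 3 (45.7 CPM, others 50.3 to 50.7).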

How the results depend on the processing

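The log2 fold change of Pigr was below 0 in 15 of 15 alternatives, from -0.71 (without water 1) to -0.49 (without water 3), with -0.61 for RLE size factors, -0.63 for library totals and -0.61 without Defa genes. As the contrast chose the gene, these are descriptions with no call. Its group means without Defa genes in the totals were 2360 and 1517 CPM. Over all genes, edgeR called 3 higher and 7 lower with zinc, DESeq2 8 and 28, and edgeR without the filter 11 and 55. Leaving out 1 library gave 0 to 5 higher and 1 to 12 lower: 1 higher without water 1, 0 higher and 1 lower without water 2, 2 lower without water 3, 5 higher without zinc 1, 1 lower without zinc 2 and 12 lower without zinc 4. Without the filter, 1 upstream gene (Nfkbia) and 1 epithelial signal (Ccl28) passed the threshold as lower. Without water 1 and zinc 1, chosen after seeing the data, 1 epithelial signal (Ccl28) did. Apart from the cell type marker lists, no other list count moved from 0. Calls in the marker lists were not counted under the alternatives, but 2 of their named members passed the threshold in some. Sis, an enterocyte marker, did so in DESeq2 (adjusted p = 0.0494) and in edgeR without zinc 1. Top2a, a marker of dividing cells, did so in edgeR with the replicate block (adjusted p = 0.0226). Both stood higher with zinc in the main fit. The cause of these shifts was not tested.

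The replicate numbers were not taken to pair the mice. Deviations from the group means of same-numbered libraries had r = 0.23, 5.5e-05, 0.13 and 0.26 for numbers 1 to 4. Zinc 1, 3 and 4 correlated best with the water library of their own number, a hint from the data only, and zinc 2 with water 3 (r = 0.040). When the number entered the model as a replicate block, edgeR called 6 genes higher and 26 lower, and Pigr had a log2 fold change of -0.59 (SE 0.11).

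With 4 mice a group, bulk RNA and a strand setting not known, small differences of sparse genes were not resolved. The level of Pigr per length depends on the annotated exons.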
